A study of Rattus norvegicus with 48 samples.

Results

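The transcripts described here are 300 bead array probes that were detected in the left ventricle of rats on a low-salt diet, were below detection in the left ventricle of nearly every rat on a high-salt diet, and were detected in every kidney. A probe qualified when its detection p-value was below 0.05 on all 12 low-salt ventricular arrays, above 0.05 on at least 11 of the 12 high-salt ventricular arrays, and below 0.05 on all 24 kidney arrays. Of 22523 probes on the array, 631 met these conditions, and the 300 with the highest mean log2 intensity on the low-salt ventricular arrays were kept. A gene could be named for 221 of the 300, each for a different gene, and the other 79 are given by probe number. The members were thus chosen by their ventricular and kidney detection p-values and their low-salt ventricular intensity. Because ventricular detection chose them, every ventricular value on high salt, counts of calls included, is a description of the choice and no test of the members. The choice used no difference between kidney groups and none between the antibody groups on low salt. It did require detection on all of these arrays. A transcript that fell below detection in any of these groups could therefore not be a member.

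The animals were male Dahl salt-sensitive rats of the SS/JrHsd strain, an inbred line that becomes hypertensive on a salt-rich diet, and their age is given as 16 weeks. All were placed on 0.1% or 8% NaCl at 6 weeks of age, and all received a single intraperitoneal injection of 50 µg/kg antibody. The antibody was either a control mouse IgG1 or the monoclonal antibody 3E9 against marinobufagenin, so the control groups also carried an injected mouse antibody, and no group was left uninjected. The injection is dated to week 7 of the diet and to 15 weeks of age, and the diet to 8 weeks in all. These dates cannot all hold, and how long the rats ate the diet is not known exactly. The 4 combinations of diet and antibody held 6 animals each, and both tissues of each of the 24 animals were hybridised to an array of their own. The sample titles call the cardiac tissue lateral ventricle and the series design calls it left ventricle, and left ventricle is written here.

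An Illumina bead array reports, for each probe, an intensity and a detection p-value that ranks this intensity among negative control beads on the same array. A transcript can therefore drop out of detection when it becomes scarcer, and also when the whole array is dim and weak signals sink into the background. Marinobufagenin is an endogenous steroid that inhibits the sodium pump (Na/K-ATPase) and also activates signalling through it, and it is studied in salt-sensitive hypertension for its link to fibrosis in the heart and kidney.

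Cardiomyocyte markers set the ventricular arrays apart from the kidney arrays. Of 8 cardiomyocyte probes, 6 were detected on all 12 low-salt ventricular arrays and 1 on all 24 kidney arrays. The 2 proximal tubule, 1 thick ascending limb, 2 collecting duct and 1 podocyte probes were detected on all 24 kidney arrays, and 0 of them on all 12 low-salt ventricular arrays. High-salt ventricular arrays were much dimmer than low-salt ones. Brightness is taken here as the 95th percentile of an array's raw intensities, on the log2 scale. It was 10.02 to 10.70 on the 12 low-salt arrays and 7.44 to 8.77 on 11 of the 12 high-salt arrays. The remaining high-salt array, control IgG replicate 1, stood apart at 9.73, with 7033 detected probes against 3859 to 5522 on the other 11. In the kidney, 2 arrays were left out together as a check, and the kidney counts of members are also given without them. They are high-salt control replicate 1, the dimmest kidney array at 10.96, and low-salt control replicate 2, which had 9995 detected probes, the fewest in the kidney. No 2 arrays held identical values.

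The promoters of the named members are described first, as a feature that the choice of probes did not use, and 3 are printed because the results below return to these genes. Edf1 is the brightest named member, and Gcgr and Gpd2 are the named members on which diet and antibody interacted in the kidney. Each sequence is the RefSeq promoter on assembly GRCr8, running from 250 bases before to 50 after the annotated start, 5′ to 3′. Capitals mark motif matches on either strand. Edf1 lies at chr3:28774944-28775243, plus strand. Gcgr lies at chr10:106306553-106306852, plus strand. Gpd2 lies at chr3:62211403-62211702, plus strand.
Edf1: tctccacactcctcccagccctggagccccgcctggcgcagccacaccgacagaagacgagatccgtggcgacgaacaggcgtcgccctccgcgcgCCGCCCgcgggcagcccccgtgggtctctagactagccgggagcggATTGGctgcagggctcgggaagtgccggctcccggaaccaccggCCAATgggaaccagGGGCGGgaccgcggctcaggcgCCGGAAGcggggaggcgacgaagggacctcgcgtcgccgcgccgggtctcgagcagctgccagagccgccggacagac
Gcgr: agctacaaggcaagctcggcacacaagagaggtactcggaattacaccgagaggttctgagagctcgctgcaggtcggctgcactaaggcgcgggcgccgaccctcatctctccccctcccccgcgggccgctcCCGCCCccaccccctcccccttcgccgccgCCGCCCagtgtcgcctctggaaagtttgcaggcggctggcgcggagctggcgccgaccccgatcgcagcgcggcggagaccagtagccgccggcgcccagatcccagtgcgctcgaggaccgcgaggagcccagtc
Gpd2: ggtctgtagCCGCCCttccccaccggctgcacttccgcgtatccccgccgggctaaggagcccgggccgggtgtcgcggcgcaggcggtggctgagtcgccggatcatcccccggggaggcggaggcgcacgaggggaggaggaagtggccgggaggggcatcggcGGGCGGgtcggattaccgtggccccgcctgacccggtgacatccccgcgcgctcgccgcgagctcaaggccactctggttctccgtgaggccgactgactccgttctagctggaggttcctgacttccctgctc
The Edf1 window held 2 CCAAT boxes, 2 Sp1 GC boxes and 1 ETS motif, and those of Gcgr and Gpd2 held 2 Sp1 GC boxes each. None of these 3 windows held the TATA box or the E-box.

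A promoter was given for 181 of the 221 named members. The motifs were searched on both strands as exact letters. They were TATAAA for the TATA box and CCAAT for the CCAAT box. The Sp1 GC box was searched as GGGCGG, the ETS motif as CCGGAAG and the E-box as CACGTG. None of these motifs contains another. The GC box was present in 65.7% of member promoters, in 64.0% of the 3996 promoters of genes detected on all 12 low-salt ventricular arrays, and in 34.9% of all 27457 rat promoters in the table. For the ETS motif the shares were 19.9%, 19.8% and 9.22%, and for the CCAAT box they were 43.1%, 38.4% and 37.7%. The E-box was found in 11.6%, 9.53% and 6.65%. The TATA box was found in 6.08% of member promoters, 7.43% of the promoters of detected genes and 14.3% of all promoters. The median GC content was 60.3%, 60.7% and 52.3%. Member promoters were thus GC-rich and mostly without a TATA box, as were the promoters of ventricular transcripts in general. A match describes the letters only.

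The brightest named member was Edf1, a transcriptional coactivator that also binds colliding ribosomes. Its raw ventricular intensity on 0.1% NaCl had a lowest, median and highest value of 346, 519.8 and 786 with control IgG and of 386, 489 and 657 with the antibody. On 8% NaCl it was 107, 119.6 and 174 with control IgG, detected on 1 of 6 arrays, and 100.3, 112 and 128 with the antibody, detected on 0 of 6. The low-salt and high-salt values did not overlap, and the highest high-salt value was below the lowest low-salt value.

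Cdk14, a cyclin-dependent kinase, gave 416, 547 and 829.8 (lowest, median and highest) on low salt with control IgG and 107.7, 125 and 236.9 on high salt with control IgG. Hmgn1, a nucleosome-binding protein, gave 346, 450.0 and 1007 on low salt and 114, 122 and 174 on high salt in the same groups. Cox19, which takes part in copper delivery to cytochrome c oxidase, gave 413, 448 and 549 on low salt and 108, 126 and 193 on high salt. In each case the highest high-salt value came from a single array, control IgG replicate 1, the only array of its group on which the transcript was detected. The other 6 of the 10 brightest members have no gene name here, the first being ILMN_1356886, whose mean log2 intensity was 9.38 on low salt and 6.97 on high salt.

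The members covered many roles. Among those with a role in chromatin, named for their known function after their values were seen, Smarca5 is a nucleosome remodelling ATPase, Hdac2 a histone deacetylase, Ctcf an insulator protein, Ezh1 a histone methyltransferase and Ncor1 a nuclear corepressor. Smarca5 had a raw median of 356 on low salt and 118 on high salt in the control IgG groups. Hdac2 had 273 and 112, and it was detected on 0 of the 12 high-salt arrays. Ctcf had 318 and 122, also with 0 of 12. Ezh1 had 307 and 123, and Ncor1 had 305 and 121, each detected on 1 high-salt array. High-salt medians of these members lay close together, near the array background, while low-salt medians differed.

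Receptors and secreted proteins of cardiac interest were also present, again named after their values were seen. For Ghr, the growth hormone receptor, the raw median was 353 on low salt and 111 on high salt with control IgG. For F2r, the thrombin receptor, it was 349.9 and 113, and for Tek, the angiopoietin receptor of endothelial cells, 269 and 124. For Vegfc, a lymphangiogenic growth factor, it was 364 and 115. For Ltbp1, which holds latent TGF beta in the matrix, it was 350.4 and 121, for Fbln5, an elastic fibre protein, 354 and 118, and for Vcam1, an endothelial adhesion molecule, 275 and 125. Each of these 7 was detected on 1 of the 12 high-salt arrays.

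Pathway lists are given here as counts, with those over all probes at the end of the paragraph. Of 68 oxidative phosphorylation probes detected on all 12 low-salt ventricular arrays, 4 were lost on high salt, 59 were detected on all 12 high-salt arrays, and 3 were members, namely Cox19, Ndufaf5 (an assembly factor of complex I) and Cox6c (a subunit of cytochrome c oxidase). Cox6c had a raw median of 263 on low salt and 109 on high salt with control IgG, and Ndufaf5 had 376 and 117. Of 37 proteasome probes 3 were lost, and 1 of them, Psma1, a core particle subunit, was a member, with 294.7 and 122. None of 59 ribosomal protein probes, 7 fatty acid oxidation probes, 4 sodium pump probes or 4 hypertrophy probes was lost. Of 10 TGF beta and matrix probes 2 were lost, and of 20 splicing factor probes 1, with 0 members in either list. None of the 10 cell type marker lists held a member, and 1 of the 6 detected cardiomyocyte probes was lost. Detected on all 12 high-salt arrays were 3 of these 6, 3 of 3 fibroblast and 2 of 2 endothelial probes. For erythroid probes it was 2 of 2, and for smooth muscle 0 of 1. Of all 6141 probes detected on the 12 low-salt arrays, 735 (12%) were lost, 2644 (43.1%) were detected on all 12 high-salt arrays and 300 were members. Loss depended on low-salt brightness, as given below, and the lists were not matched for it. Whether any list was lost or kept more than other probes was not tested.

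Loss was almost complete on 11 high-salt arrays and partial on one. High-salt control replicate 1 detected 245 of the 300 members. High-salt antibody replicate 6 detected 4. Control replicates 2, 3, 4 and 6 detected 1 each, and control replicate 5 and antibody replicates 1 to 5 detected 0. Counted by member, 47 were detected on 0 high-salt arrays and the rest on exactly 1. The only high-salt array near the low-salt range of brightness was the one that kept most of the members.

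**Figure D1:**
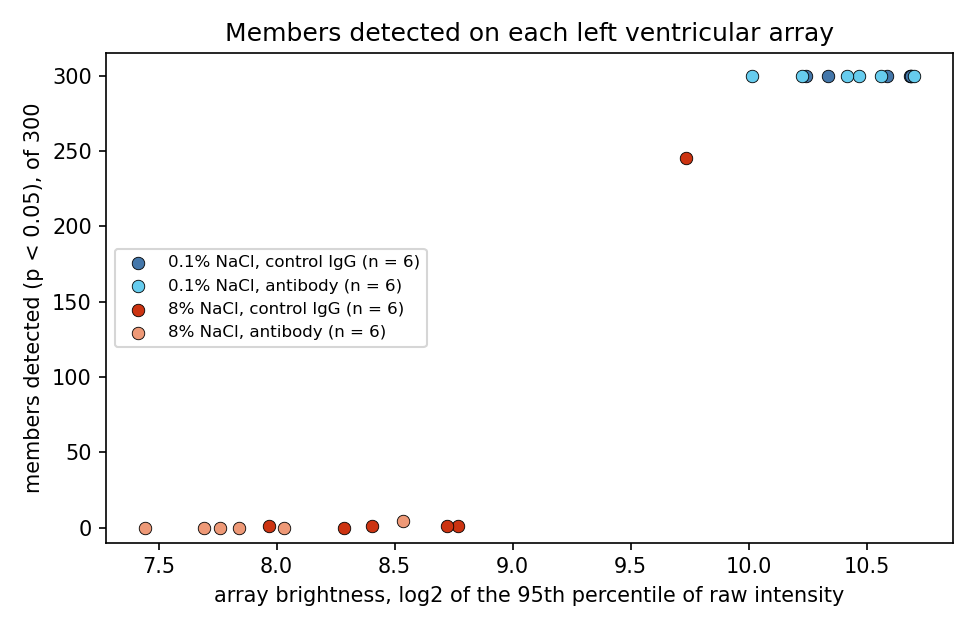
Number of the 300 members detected (vertical axis) against array brightness, the 95th percentile of its raw intensities in log2 (horizontal axis), with 1 point for each of the 24 left ventricular arrays and colours for the 4 groups of 6. All 12 low-salt arrays lie at 300 by the rule, high-salt control replicate 1 at a brightness of 9.73 detected 245, and the other 11 high-salt arrays detected 0 to 4.

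Without high-salt control replicate 1, 596 probes were undetected on all 11 remaining high-salt arrays, and 292 of the 300 members were among them. When that array was left out and 1 of the 11 remaining arrays was allowed to detect a probe, 890 probes met the rule. With all 12 high-salt arrays required to be undetected, 164 met it. At the lower end of the ranking, Pigk and ILMN_1353436, the last probes kept, had a mean log2 intensity of 7.958 and 7.956 on low salt and 6.83 and 6.92 on high salt. Just outside, Sart1 and Osbp both had 7.956 on low salt, with 6.85 and 6.80 on high salt. The cap at 300 thus falls between probes that hardly differ. The members' mean low-salt log2 intensities were mostly between 8 and 8.5, where 229 of the 300 lay, against 39 below 8, 29 from 8.5 to 9 and 3 above 9.

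Set against the dimming of whole arrays, the members kept less signal than other probes. After normexp background correction, the median member kept 34.8% of its low-salt mean on high-salt control replicate 1, where the median of all 6141 probes detected on the 12 low-salt arrays was 57.9%. On the other 5 high-salt control arrays the members kept 8.28% to 12.4%, and all 6141 probes kept 11.9% to 23.9%. On the 6 high-salt antibody arrays the members kept 6.40% to 11.6%, and all probes 6.51% to 19.8%. Members were below the median of all probes on each of the 12 high-salt arrays. The rule itself favours such probes, so the gap is a description. The same measure among low-salt arrays ran from 63.9% on the dimmest, antibody replicate 6, to 136% on control replicate 1, and there too the members moved further from 100% than all probes did on both of these arrays.

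**Figure D2:**
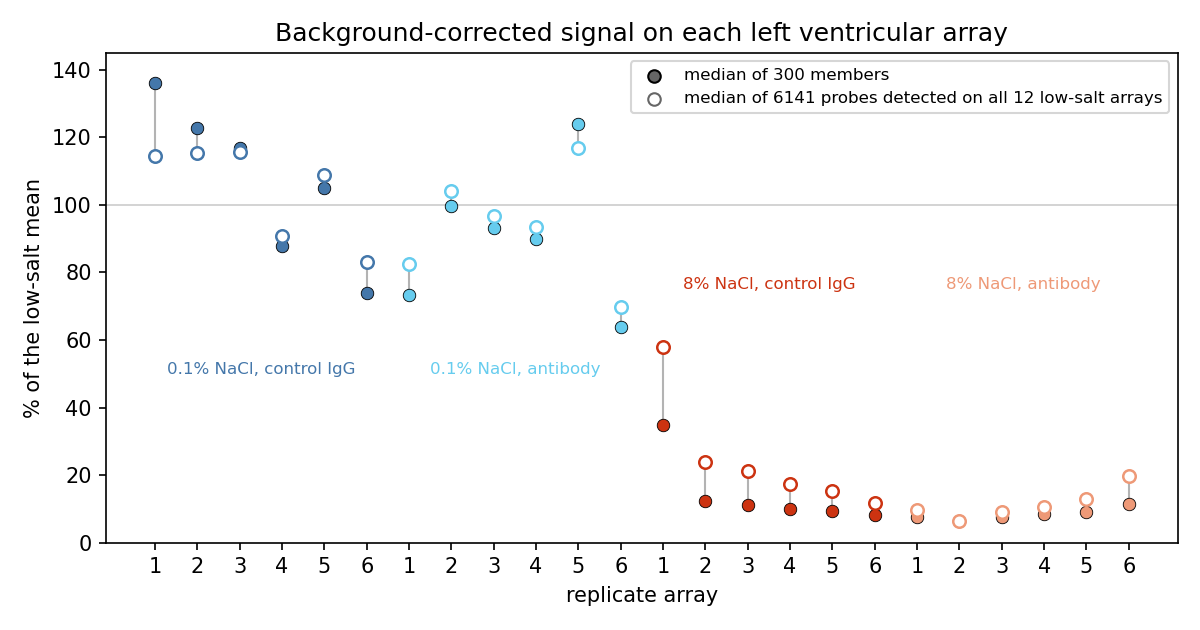
Background-corrected signal on each of the 24 left ventricular arrays as a percentage of the mean over the 12 low-salt arrays, as the median over the 300 members (filled) and over the 6141 probes detected on all 12 low-salt arrays (open), by group and replicate. On 8% NaCl the members lie at 34.8% on control replicate 1 and at 6.40% to 12.4% on the other 11 arrays.

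Loss depended steeply on how bright a probe was on low salt. Of 1140 probes with a mean low-salt log2 intensity from 7.5 to 8, 38.4% were lost, of 1347 from 8 to 8.5 19.6%, of 995 from 8.5 to 9 3.02% and of 659 from 9 to 9.5 0.455%. None of the 494, 410, 295 and 801 probes in the 4 brighter ranges was lost, and 99.4% of the brightest were detected on all 12 high-salt arrays. On the raw log2 scale the median member was lower by 1.30 on high salt, and the median of all 6141 probes was lower by 1.45. After quantile normalization, which gives every array the same distribution, these medians were -1.32 and -0.37. After scaling each array to its median they were -1.79 and -1.78. Against all 6141 probes, which span every brightness, whether the members stand out in their ventricular fall thus changed with the scaling. Among probes between 8 and 8.5 on low salt, the members fell further on each scale. Their median differences were -1.30 raw, -1.32 after quantile normalization and -1.79 after median scaling. Those of the other probes in this range were -1.14, -0.41 and -1.47. The members there kept a median of 9.53% of their signal on the 11 dim arrays and the others kept 16.4%. The rule favours such probes, so these gaps are a description.

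**Figure D3:**
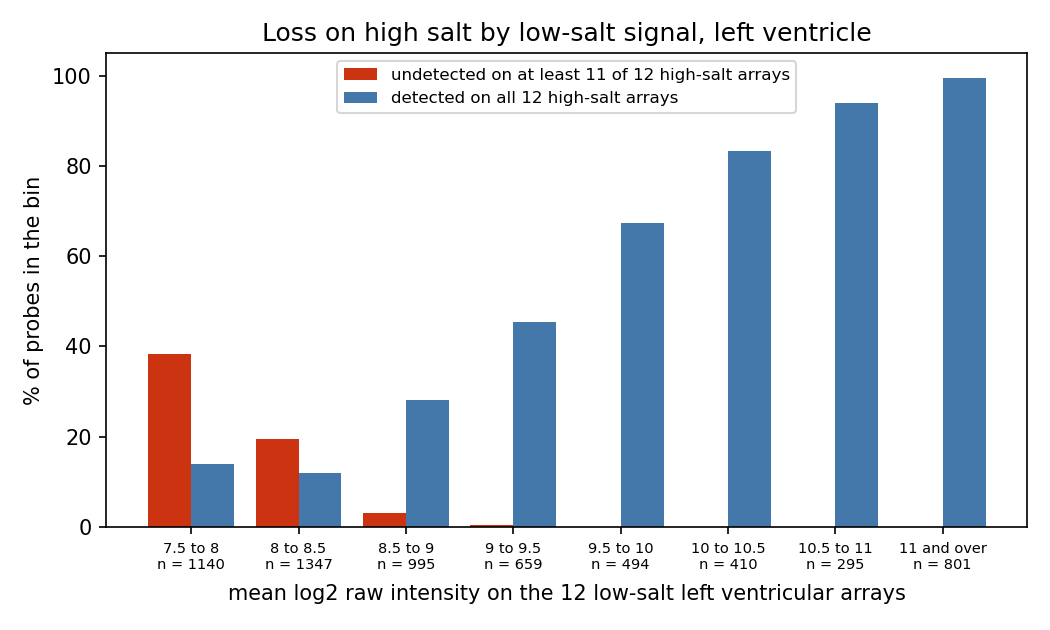
Share of probes lost (red, undetected on at least 11 of 12 high-salt left ventricular arrays) and share detected on all 12 (blue), in percent of the probes of each range of mean log2 raw intensity on the 12 low-salt arrays, with the number of probes under each range. Loss falls from 38.4% in the dimmest range to 0 above 9.5, and detection on all 12 arrays reaches 99.4% in the brightest.

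In the linear model of all 8354 tested ventricular probes (limma, Benjamini-Hochberg adjusted p below 0.05), all but 1 of the 300 members were lower on high salt with control IgG, where 59.7% of all tested probes were called and 34.5% were called lower. With the antibody 297 were lower, against 71.5% called and 44.4% called lower among all. These counts follow from the rule and are given as a description. The median log2 difference of the members was -1.26 with control IgG and -1.40 with the antibody, beside -0.13 and -0.31 over all tested probes. With array brightness as a covariate the members' medians were -0.51 and -0.40. The members were chosen by detection on these same arrays, so these medians are also a description and no test. The median standard error rose from 0.19 to 0.35 with control IgG and to 0.45 with the antibody, and the medians of all tested probes became 0.06 and 0.03. The diets did not overlap in brightness, since no high-salt array reached the brightness of any low-salt array. The fit with brightness therefore extrapolates between the diets, and the part of array brightness in the loss cannot be told apart from that of the diet. In bulk tissue, fewer cells of a type and less RNA per cell also cannot be told apart.

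Marker lists of the ventricle dimmed with the members. The log2 of the summed raw intensity of the 8 cardiomyocyte probes was 15.6 to 16.5 on low-salt and 11.2 to 14.8 on high-salt arrays. For the 4 fibroblast probes it was 12.9 to 13.9 and 9.59 to 12.8, and for the 3 endothelial probes 9.76 to 10.4 and 8.66 to 9.92. For the 3 erythroid probes it was 14.5 to 15.5 and 11.3 to 15.0. One cardiomyocyte, 1 endothelial and 1 erythroid probe were undetected on all 24 ventricular arrays. The 8 further probes of 7 member genes were compared within genes. Of these, 3, for Gcgr, Gpbp1 and U2surp, were detected on all 12 low-salt arrays, and on high salt they were still detected on 8, 2 and 9 of the 12 arrays. None of the 3 was lost by the rule, and 4 of the other 5 were detected on 0 low-salt arrays. The mean raw log2 intensity of the 3 was nonetheless lower on high salt as well. It was 8.41 on low and 7.08 on high salt for Gcgr, 8.44 and 6.97 for Gpbp1 and 8.38 and 7.17 for U2surp. On low salt the 3 were brighter than the median member, whose raw log2 intensity averaged 8.19 with control IgG and 8.11 with the antibody.

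Fold changes of undetected probes are given as lower limits on the quantile-normalized scale. The members were chosen as undetected on these arrays, and the part of array brightness cannot be told apart from that of the diet. The limits therefore describe normalized signal and set no lower limit on the loss of a transcript. For 296 members undetected on all 6 high-salt antibody arrays, the low-salt antibody mean was compared with the lowest detectable level on each high-salt array, and 119 gave a limit above 1. These limits ran up to at least 3.21-fold lower, with a median of 1.18-fold. For the other members of these 296 the limit was under 1 and no fold is given. For the 51 members undetected on all 6 high-salt control arrays they ran from at least 1.10-fold to at least 1.72-fold. The other members were detected on 1 array of the high-salt control group.

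On low salt, the antibody against marinobufagenin changed 0 of the 300 members in the left ventricle in the limma fit, beside 0% of the 8354 tested probes. Their median log2 difference was -0.05, and 5 members had an unadjusted p below 0.05, as did 0.862% of all tested probes. The count was also 0 under every alternative setting run. Members had to be detected on all low-salt ventricular arrays, so a transcript that the antibody took below detection could not be counted. The main fit also pools its estimate of the spread with the high-salt arrays. On high salt, 25 of the 300 members were called, 1 higher and 24 lower, or 8.33% beside 18.8% of all tested probes (7.12% higher, 11.6% lower). The members were chosen as undetected on at least 11 of these same 12 arrays, and 245 were detected on high-salt control replicate 1, so the count describes values at background apart from that array, and no fold is given. Leaving out high-salt control replicate 1 brought the share to 2.33%, antibody replicates 2, 3 and 4 to 4.67%, 4% and 5.33%, and control replicate 6 to 15%. With brightness as a covariate 1 member was called (0.333%).

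In the kidney the same probes gave strong signal in every group. In low-salt controls all but 1 of the 300 members were brighter in the kidney than in the left ventricle. The median raw log2 intensity was 9.76 in the kidney and 8.17 in the left ventricle, without normalization between the tissues. Whole kidney arrays were also brighter, with a mean brightness of 12.05 in low-salt controls against 10.54 in the left ventricle. The share of all probes brighter in the kidney was not counted, so the count is no result about the members. The members' median normalized log2 intensity lay between 9.16 and 9.29 on all 24 kidney arrays, with group means of 9.24 ± 0.03 (SD, n = 6) on low salt with control IgG, 9.22 ± 0.03 on low salt with the antibody, 9.19 ± 0.03 on high salt with control IgG and 9.24 ± 0.04 on high salt with the antibody. The groups overlapped. Detection on all 24 kidney arrays was a condition of the choice, so no member could be undetected here.

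Salt changed 43 of the 300 members in the kidneys of rats given control IgG, 12 higher (4%) and 31 lower (10.3%). This is 14.3%, beside 14% of all 11534 tested kidney probes (6.74% higher, 7.3% lower). Among the 8216 probes detected on all 24 kidney arrays, as the members are by the rule, 16% were called, 7.05% higher and 8.95% lower. The share of members that responded to salt in the kidney was therefore near the background. Their median log2 difference was -0.07, beside -0.02 for all tested probes, and in 18 of the 43 the 6 high-salt and 6 low-salt values did not overlap. That is 41.9% of the members called, beside 31.9% of all probes called.

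The share called moved with single arrays and with the scaling. It was 9.33%, 8.33% and 9% without high-salt control replicates 1, 2 and 5, each left out in turn. Without both kidney arrays named above it was 9.33%, or 28 members, 5 higher and 23 lower, beside 11.6% of all. With median scaling it was 4.67%, 2 higher and 12 lower, beside 6.57% of all. On the authors' scores it was 12.3%, beside 15.1% of all, but 20 members were higher and 17 lower, so the excess of lower members depended on the values used. Markers of other cell types moved in the same comparison. All 4 fibroblast probes were called higher on high salt with control IgG. The log2 of their summed normalized intensity was 12.2 to 13.2 on low salt and 13.1 to 14.0 on high salt. The 1 smooth muscle probe was called higher, at 9.69 to 10.19 on low and 10.11 to 11.17 on high salt, and the 1 podocyte probe was called lower, at 9.54 to 10.65 and 8.58 to 9.95. The 2 proximal tubule, 2 endothelial, 2 collecting duct and 1 thick ascending limb probes were not called. The part of cell composition in the members' differences was not tested.

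**Figure D4:**
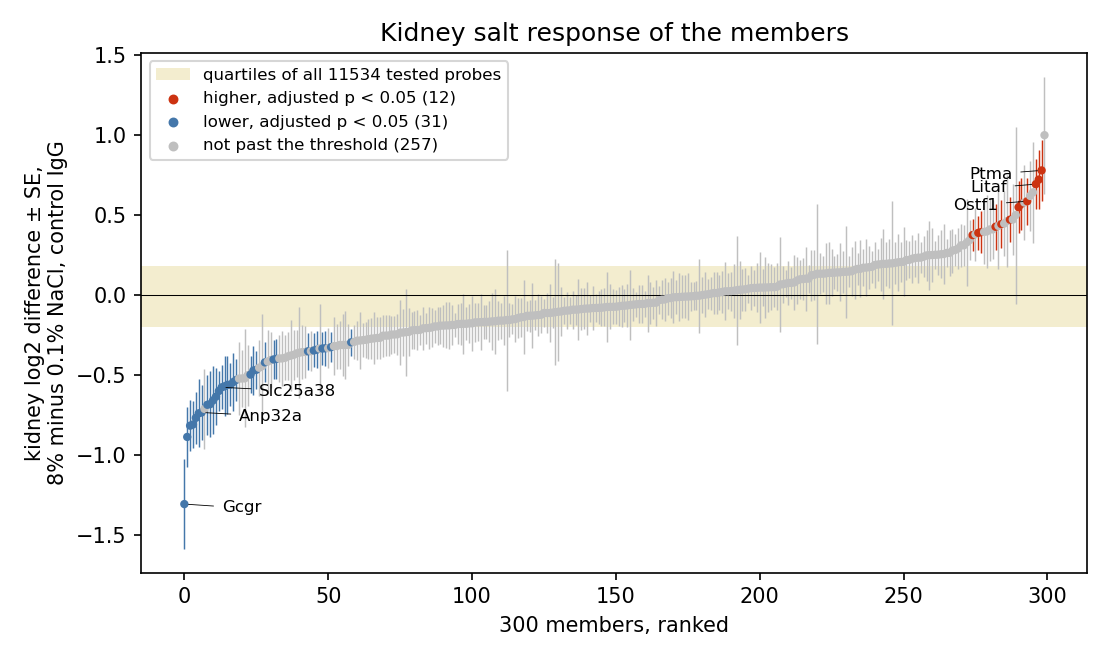
Kidney log2 difference between 8% and 0.1% NaCl with control IgG (vertical axis, ± SE from limma) for the 300 members ranked from lowest to highest, with called members in red (12 higher) and blue (31 lower) and the quartile range of all 11534 tested probes shaded. Gcgr is lowest at -1.31, Ptma is the highest called member at 0.78, and most members lie within the spread of all probes.

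Of the 31 members that fell with salt in the kidney, 18 have a gene name. Gcgr, the glucagon receptor, fell furthest. Its normalized log2 kidney intensity (lowest, median and highest) was 9.63, 10.09 and 10.44 on low salt and 8.22, 8.66 and 9.85 on high salt, both with control IgG. The log2 difference was -1.31 ± 0.28 (SE, limma adjusted p = 0.00476), with a single high-salt array, at 9.85, inside the low-salt range. The call held under all 10 alternative settings and without each of the 24 arrays. A second Gcgr probe, ILMN_1376835, which is no member, gave -1.26 ± 0.26 (limma adjusted p = 0.00438). Another, ILMN_1376024, was detected on 22 of 24 kidney arrays and gave -0.20 (limma adjusted p = 0.466).

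Anp32a, an acidic nuclear phosphoprotein of chromatin, was 10.51, 10.66 and 11.90 on low salt and 9.67, 10.18 and 10.28 on high salt. The groups did not overlap, and the log2 difference was -0.73 ± 0.17 (SE, limma adjusted p = 0.0083). Slc25a38, the mitochondrial glycine carrier used for haem synthesis, was 9.78, 10.07 and 10.32 on low salt and 9.11, 9.58 and 10.02 on high salt, a difference of -0.58 ± 0.14 (limma adjusted p = 0.00835) with overlapping groups. Hpdl, a mitochondrial dioxygenase-like enzyme, fell by 0.66 on the log2 scale (limma adjusted p = 0.0404). Its call was lost under 7 of 10 alternative settings. Removing any of 9 arrays also ended the call, namely high-salt control replicates 1, 2, 4 and 5 and low-salt control replicates 1 to 5. The other 14 named members fell by 0.29 to 0.57. Among them, and picked for their known roles after their values were seen, are the E3 ligase Rnf139, the arginine methyltransferase Prmt5, the spermine synthase Sms, the phosphatase Phlpp1 and the chromatin protein L3mbtl2. Among unnamed probes, ILMN_1372925 fell by 0.89 and ILMN_1373086 by 0.82.

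Of the 12 members that rose with salt in the kidney, 7 have a gene name. Ptma, prothymosin alpha, a small acidic nuclear protein, was 10.15, 10.84 and 11.06 (lowest, median and highest log2) on low salt and 11.10, 11.48 and 12.09 on high salt with control IgG. The groups did not overlap, and the difference was 0.78 ± 0.19 (SE, limma adjusted p = 0.00978). Ptma belongs to a family with many processed copies, which its probe may not tell apart. Without the 2 kidney arrays named above its limma adjusted p was 0.0503.

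Litaf, an endosomal membrane protein that responds to lipopolysaccharide, was 9.63, 10.61 and 10.74 on low salt and 10.80, 11.15 and 11.46 on high salt, a difference of 0.69 ± 0.16 (limma adjusted p = 0.0068). Ostf1, an adaptor protein, was 9.62, 10.65 and 10.75 on low salt and 10.89, 11.09 and 11.32 on high salt, a difference of 0.59 ± 0.15 (limma adjusted p = 0.0105). Neither pair of groups overlapped, and the lowest value of both genes came from low-salt control replicate 2. With median scaling both calls were lost (limma adjusted p = 0.0922 and 0.159). Cdc42ep1, an effector of Cdc42, rose by 0.55, Jpt1 by 0.44, the casein kinase Csnk1g2 by 0.43. The BMP signal transducer Smad1, picked after its values were seen, rose by 0.39. The calls of Jpt1 and Csnk1g2 were lost under 6 of 10 alternative settings each. Leaving out any of 17 of the 24 arrays ended the call of Jpt1, and any of 21 that of Csnk1g2. The call of Cdc42ep1 was lost under 2 of 10 settings and without any of 6 arrays. Among unnamed probes, ILMN_1361406 rose by 0.72 and ILMN_1373349 by 0.57.

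Most members described for the ventricle did not pass the kidney test. The kidney salt difference with control IgG was 0.20 for Edf1, -0.15 for Cdk14, -0.17 for Hmgn1 and -0.21 for Cox19 (limma adjusted p from 0.287 to 0.36). It was -0.71 ± 0.25 for Ezh1 (limma adjusted p = 0.0582), -0.45 ± 0.17 for Cox6c (adjusted p = 0.0824), -0.33 ± 0.13 for Vegfc (adjusted p = 0.0786) and 0.41 ± 0.20 for Vcam1 (adjusted p = 0.169). For Smarca5, Ncor1, Ctcf, Hdac2, Ltbp1, Ghr and Tek it lay between -0.23 and 0.07. Of 71 tested oxidative phosphorylation probes in the kidney, 0 rose and 9 fell with salt, none of them one of the 3 members. Of 64 ribosomal protein probes 10 rose and 0 fell, of 42 proteasome probes 4 rose and 3 fell, of 14 TGF beta and matrix probes 7 rose and 1 fell, and of 26 splicing factor probes 1 rose and 0 fell. Of 7 fatty acid oxidation probes 0 rose and 1 fell, and of 7 sodium pump probes 0 did either. Over all tested kidney probes 6.74% rose and 7.3% fell.

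In rats given the antibody against marinobufagenin, salt changed 4 of the 300 members in the kidney, 2 higher and 2 lower, or 1.33% beside 1.84% of all tested probes (0.624% higher, 1.21% lower). Gpd2, the mitochondrial glycerol-3-phosphate dehydrogenase of the glycerol phosphate shuttle, was 8.32, 8.52 and 8.83 on low salt and 8.90, 9.13 and 9.36 on high salt, both with the antibody. These groups did not overlap, and the log2 difference was 0.59 ± 0.11 (SE, limma adjusted p = 0.0115). The call held under all 10 alternative settings and without each array in turn. Purb, a single-strand DNA binding regulator of muscle genes, was 9.74, 9.90 and 10.27 on low salt and 10.14, 10.37 and 10.47 on high salt, a difference of 0.43 ± 0.11 (limma adjusted p = 0.042) that was lost without any of 14 arrays.

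Slc16a6, a member of the monocarboxylate transporter family, was 8.30, 8.87 and 9.44 on low salt and 6.78, 7.61 and 9.05 on high salt with the antibody. The groups overlapped, the difference was -1.18 ± 0.31 (limma adjusted p = 0.0463), and 5 of 10 alternative settings and the removal of any of 16 arrays ended the call. The unnamed probe ILMN_1649965 was 8.58, 9.97 and 10.21 on low salt and 6.81, 7.67 and 9.42 on high salt, a difference of -1.77 ± 0.34 (limma adjusted p = 0.0122) that held in all 10 settings and without each array. The share of members called here moved with single arrays. It was 0.667% without high-salt antibody replicate 1, 2, 4 or 5, high-salt control replicate 6, low-salt antibody replicate 3, 4, 5 or 6 or low-salt control replicate 1, 4 or 6. It was 2% without high-salt antibody replicate 6, 3% without low-salt control replicate 2 and 3.33% without low-salt antibody replicate 1. With median scaling it was 3%, 8 higher and 1 lower, beside 2.71% of all, and on the authors' scores 2.67%, 7 higher and 1 lower, beside 2.76% of all. Without the 2 kidney arrays named above, which lie in the control groups, it was 5.67%, beside 6.63% of all. The test of the difference between this salt response and that with control IgG is the interaction given below.

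The antibody on high salt changed 5 members in the kidney, 4 higher and 1 lower, or 1.67% beside 2.72% of all tested probes (1.66% higher, 1.07% lower). Without the 2 kidney arrays named above it was 4%, beside 4.82% of all. It was 0.667% without high-salt antibody replicate 5, 1% without high-salt antibody replicate 1 or 3 or high-salt control replicate 5, 3.67% without high-salt antibody replicate 2, 3.33% without high-salt control replicate 3 and 4.33% without low-salt control replicate 2. This comparison shares its high-salt control arrays with the salt comparison in control rats, so a member low in that group appears low in one and high in the other. Gcgr was 8.22, 8.66 and 9.85 with control IgG and 9.28, 10.23 and 10.74 with the antibody, a difference of 1.34 ± 0.28 (SE, limma adjusted p = 0.0133). The groups overlapped through a single control array. The limma adjusted p was 0.0633 when only these 2 groups were fitted. The second probe, ILMN_1376835, gave 1.21 ± 0.26 (limma adjusted p = 0.0159).

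Slc25a38 was 9.11, 9.58 and 10.02 with control IgG and 9.86, 10.21 and 10.37 with the antibody, a difference of 0.68 ± 0.14 (limma adjusted p = 0.0106), and 0.0608 with only these groups fitted. Slc5a6, the sodium-dependent multivitamin transporter, was higher by 0.54 ± 0.13 (limma adjusted p = 0.0243) and Gpd2 by 0.50 ± 0.11 (limma adjusted p = 0.0188), and ILMN_1649965 was lower, at -1.38 ± 0.34 (limma adjusted p = 0.0266). Gpd2 lost the call without high-salt antibody replicate 5 (limma adjusted p = 0.0659), Slc5a6 without high-salt antibody replicates 1, 3 or 5 or control replicates 1, 2 or 5, and ILMN_1649965 without antibody replicates 1, 3 or 5 or control replicates 4 or 5. With median scaling the last 3 were not called. Of the 31 members that salt lowered in control rats, 29 had a higher mean on high salt with the antibody than with control IgG, and of the 12 it raised, 2 did. On low salt, 27 of the same 31 had a lower mean with the antibody than with control IgG, and 1 of the 12 did. Both control groups are shared with the salt comparison that called these members, so the counts are given side by side without a test. The same counts over all called probes were not made.

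On low salt the antibody changed 0 of the 300 members in the kidney in the limma fit, and 0% of all tested probes. At an unadjusted p below 0.05 there were 60 members (20%), beside 16.3% of all tested probes. Without the 2 kidney arrays named above the count was also 0. The smallest adjusted p-value was 0.0836, for ILMN_1369191 and 1 other. This count depended on the scaling, since 54 members (18%) were called lower with median scaling, where the members' median difference was -0.33 that of all tested probes was -0.19 and 7.74% of all were called. With array weights 34 members (11.3%) were called, beside 8.78% of all. Without low-salt antibody replicate 1 it was 4.33%. Array brightness was 11.19 to 12.03 in low-salt antibody kidneys and 11.53 to 12.72 in low-salt control kidneys, and its part in the count was not tested.

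The antibody effect differed between the diets for 4 members in the kidney, all 4 higher on high than on low salt, or 1.33% beside 1.11% of all tested probes, of which 0.737% were higher. The share was 0.333% without high-salt antibody replicate 4 or 5, high-salt control replicate 2, low-salt antibody replicate 3, 4 or 5 or low-salt control replicate 1. It was 0.667% without high-salt antibody replicate 1, high-salt control replicate 1 or 5 or low-salt antibody replicate 6. It was 2% without low-salt antibody replicate 2 or low-salt control replicate 6, 3.33% without high-salt control replicate 3, 3.67% without high-salt antibody replicate 2 and 4.33% without low-salt antibody replicate 1. Without the 2 kidney arrays named above it was again 1.33%, beside 1.84% of all. For Gpd2 the antibody difference was 0.50 on 8% NaCl and -0.38 on 0.1% NaCl, and the interaction was 0.87 ± 0.16 (SE, limma adjusted p = 0.0151). It was called in all 9 alternative settings and without each array. For Gcgr the antibody differences were 1.34 and -0.24, and the interaction was 1.58 ± 0.40 (limma adjusted p = 0.0495). This call was lost in 4 of 9 settings, one of them without the 2 kidney arrays, and without any of 17 arrays, with a largest adjusted p of 0.0976, while the second Gcgr probe gave 1.59 ± 0.37 (limma adjusted p = 0.0403). The other 2 are ILMN_1369191, at 0.84, and ILMN_1364046, at 0.80. In all, 48 of the 300 members were called in at least 1 kidney comparison, which is 16%, beside 16.3% of all tested probes.

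**Figure D5:**
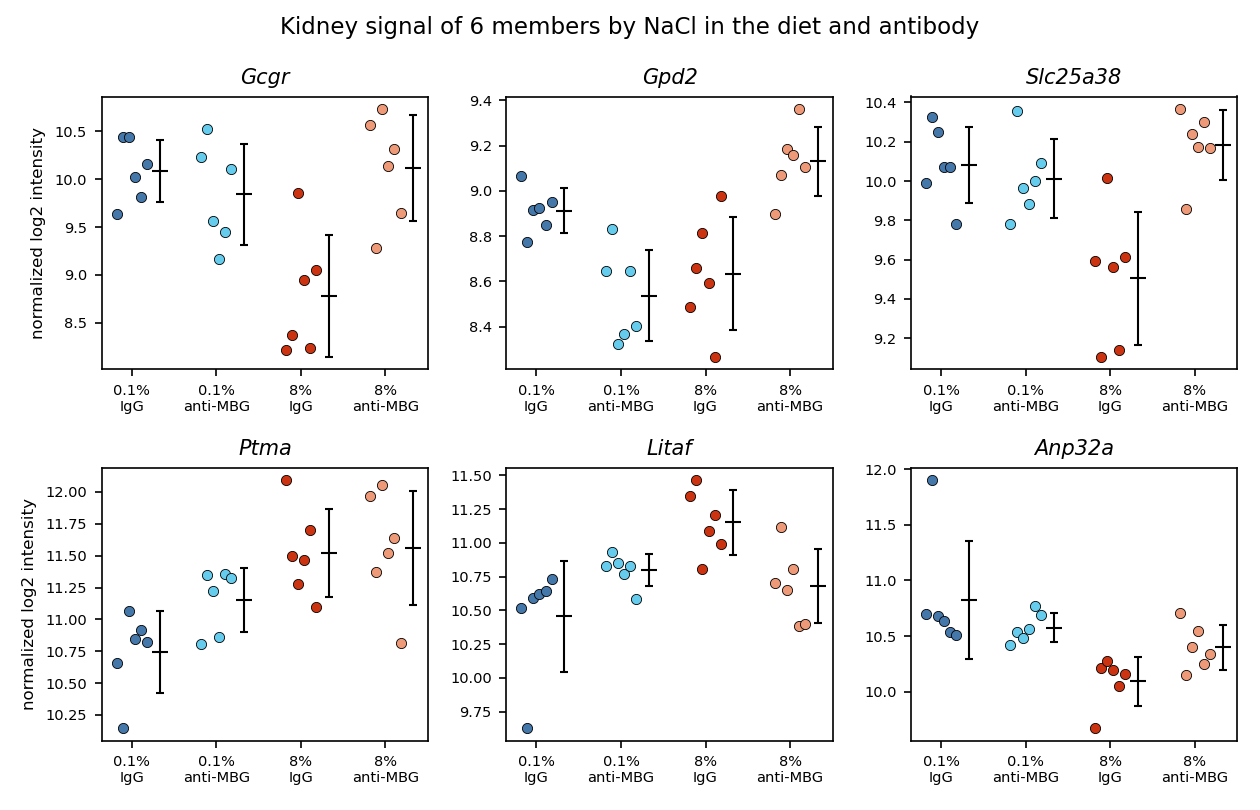
Normalized log2 intensity in the kidney (vertical axis, a separate scale for each gene) of 6 members in the 4 groups of 6 animals, with 1 point per array and the mean ± SD beside each group. Anti-MBG is the antibody against marinobufagenin. Gcgr, Slc25a38 and Anp32a were lower and Ptma and Litaf higher on 8% than on 0.1% NaCl with control IgG, and Gpd2 was higher on 8% NaCl with the antibody than in the other salt-loaded group.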

How the data were processed

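Illumina single-colour bead arrays measured RNA of both tissues of 24 rats, with a separate array for each animal and tissue. One deposited table held probe intensities on a linear scale, not normalized between arrays by its title, and a detection p-value for each, per the file headers. Per the submitters' processing notes the software was GenomeStudio 2011.1, and whether background was subtracted is not given in the sources used here. A further deposited table held the authors' scores, which by their values are standardised log10 intensities within each array, and it was used as an alternative. Slide and chip positions were not used here, so an array batch could not be examined. Precision is limited by the 6 arrays per group and by signal over background. With a single array for each animal and tissue, the spread between animals cannot be told apart from that between arrays.

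Intensities of each tissue were background-corrected by normexp with detection p-values, quantile-normalized and log2-transformed with an offset of 16 (neqc in limma 3.58.1, R 4.3.3). A probe entered the test if 6 or more of the 24 arrays detected it, which left 8354 ventricular and 11534 kidney probes. One linear model per tissue held the 4 groups of 6, with moderated tests, Benjamini-Hochberg adjustment over all tested probes and a threshold of 0.05. The fit was also run on simulated data with independent normal noise. That simulation held no detection floor and no dim arrays, so it does not speak to either. Percentages of low-salt signal used normexp values without quantile normalization, and a probe counted as lost if undetected at 0.05 on at least 11 of 12 high-salt ventricular arrays. Probe names came from the platform annotation held by GEO, which named 13793 of 22523 probes, and symbols and promoters came from RefSeq (GRCr8). Alternatives were other background, scaling, filter, weight, brightness, block and membership settings, and each array left out.

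The members and gene lists were chosen with earlier results of these data known. Genes named in the text are the 10 brightest members, members of the lists, those beside the cap of 300, and the 10 largest kidney rises and falls among members past the threshold in each kidney comparison, or the 2 with the smallest p in each direction where fewer than 3 passed. Others are said to be chosen after their values were seen. At most 2 unnamed probes per direction are given. Same-numbered replicates of different groups did not deviate together, with a mean correlation of -0.03 for the ventricle and 0.01 for the kidney, so the numbers were not used as pairs.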

Additional observations from a re-analysis of the deposited data

Results flagged for a closer look

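A single array stood away from its group in 20 cases, 6 of 18 groups of array measures and 14 of 112 groups of member values, by Dixon's test at the 95% level. Chance alone gives about 1 in 20 independent groups. These groups share arrays, so that rate is no test of the counts. The high-salt ventricular cases concern values that the rule used and are a description. In the left ventricle, high-salt control replicate 1 detected 245 members against 0 to 1 on the other 5 arrays, and its median normalized member value was 6.01 against 5.02 to 5.24. High-salt antibody replicate 6 detected 4 members against 0, and its median was 5.19 against 4.96 to 5.02. In the kidney, the median raw log2 intensity of the members was 8.88 on high-salt control replicate 1, against 9.73 to 9.87 on the others, and 10.36 on low-salt control replicate 1, against 9.40 to 9.71.

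Low-salt control replicate 2 accounted for 10 of the 14 member values in the kidney. Its normalized log2 value was below the other 5 arrays for Litaf (9.63 against 10.52 to 10.74), Ostf1 (9.62 against at least 10.62), Csnk1g2 (7.71 against 8.42 to 8.80) and ILMN_1361406 (9.14 against 10.25 to 10.60). It was above them for Anp32a (11.90 against 10.51 to 10.70), Purb (10.68 against 10.07 to 10.26), ILMN_1373086 (9.26 against 8.06 to 8.47), ILMN_1372450 (10.01 against 9.19 to 9.39), ILMN_1650107 (12.06 against 10.69 to 10.97) and ILMN_1361625 (11.70 against 10.56 to 10.71). The other 4 came from other arrays. Ostf1 was 10.83 on high-salt antibody replicate 6, against 11.12 to 11.25. Jpt1 was 9.88 on low-salt control replicate 5, against 10.08 to 10.17. ILMN_1373349 was 8.99 on low-salt antibody replicate 1, against 9.74 to 10.02. ILMN_1366430 was 7.50 on high-salt antibody replicate 1, against 7.88 to 8.08.

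The antibody effect differed between diets in the kidney, by the interaction term, for Gpd2 (0.87 on the log2 scale), Gcgr (1.58), ILMN_1369191 (0.84) and ILMN_1364046 (0.80).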

How the results depend on the processing

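Values below are percentages of members called, and the cause of each change was not tested. For salt with control IgG in the kidney (14.3%), median scaling gave 4.67%, fitting only the groups compared 4% and leaving out 2 kidney arrays chosen after seeing the data (control IgG replicate 1 on high and replicate 2 on low salt) 9.33%. For salt with the antibody (1.33%), the same settings gave 3%, 2.33% and 5.67%, the authors' scores 2.67%, array weights 12.7%, brightness as a covariate 3.67% and the 164 probes undetected on all 12 high-salt ventricular arrays 0.61%. For the antibody on high salt (1.67%), median scaling gave 1%, only the groups compared 0.333%, array weights 8%, brightness 4.33% and leaving out the 2 arrays 4%. For the antibody on low salt (0%), median scaling gave 18% and array weights 11.3%. For the interaction (1.33%), values without normexp gave 2.33%, median scaling 4.67%, the authors' scores and no filter 0.667% each, probes detected on all 24 arrays 3%, array weights 9% and brightness 3%. For the antibody on high salt in the left ventricle (8.33%), median scaling gave 0.667%, no filter 2.67%, only the groups compared 0%, array weights 1%, brightness 0.333% and the 164 probes 2.44%. The other settings, apart from the replicate block and the arrays left out below, stayed within 1.5 times of each of these shares.

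Leaving out each array in turn gave 8.33% to 15.7% for salt with control IgG, 0.667% to 3.33% for salt with the antibody, 0.667% to 4.33% for the antibody on high salt, 0% to 4.33% for the antibody on low salt and 0.333% to 4.33% for the interaction in the kidney. In the left ventricle it gave 0% throughout for the antibody on low salt and 2.33% to 15% on high salt. The rule was met by 631 probes, by 634 to 890 without single arrays, and by 164 with all 12 high-salt arrays undetected. With the replicate number as a block, although the numbers do not pair the animals, the kidney shares were 12.7% for salt with control IgG, 1.33% with the antibody, 1.67% and 0% for the antibody on high and low salt and 0.333% for the interaction.

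Of 1354 alternative values of named members, 1109 kept their side of the threshold, 218 lost the call, 27 gained it and 0 changed sign. Median scaling moved the median of all tested probes by over 0.1 on the log2 scale in several fits, in the kidney to -0.19 for the antibody on low salt, 0.19 for salt with the antibody and 0.17 for the interaction. Signal over background limits the ventricular values on high salt, and the 2 tissues were normalized apart.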
